A study of Mus musculus with 59 samples.

Results

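Prefrontal cortex of 5 female mice labelled Naa15 heterozygous (HT) and given fluoxetine was set against that of 5 HT females given vehicle. These 10 libraries were taken by their labels from the 59 of the series, and every gene with a value of 10 or more in at least 4 of the 59 libraries was tested. All mice were C57BL/6J, all received drug or vehicle through the mother's milk for 3 weeks, on postnatal days 3 to 24, and all were analysed on day 25. The other groups used here are HT fluoxetine males, wild-type (WT) fluoxetine females and males, HT and WT lithium females and males, and the vehicle group of each genotype and sex. Each group held 5 mice, apart from 4 HT vehicle males. The labels used here give no dose, no litter and no description of the Naa15 allele. Pups of 1 litter share a dam and her milk, so the p-values below measure the spread between these libraries, which may be smaller than the spread between litters.

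Fluoxetine is an antidepressant that blocks the serotonin transporter, and lithium is a mood stabiliser that inhibits glycogen synthase kinase 3 and inositol monophosphatase. Naa15 encodes the subunit that anchors the NatA complex to the ribosome, where NatA acetylates the first residue of many proteins as they are made. In the mouse, the weeks of treatment are a time of synapse formation, of astrocyte maturation and of myelination in the cortex.

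All values are read counts normalised by the authors to 1 size factor per library. Sequencing depth was 29.15 to 30.47 M reads in HT fluoxetine females, 28.77 to 30.93 M in HT lithium females and 26.64 to 30.13 M in HT vehicle females. These ranges overlapped, but the median was lower in HT vehicle females (27.40 M) than in HT fluoxetine females (30.02 M). Excitatory cortical markers summed to 70968 to 74884 normalised counts in HT fluoxetine females and 78371 to 90126 in HT vehicle females. Choroid plexus and ependymal markers summed to 209 to 1199 normalised counts in HT fluoxetine females and 215 to 447 in HT vehicle females. The X-inactivation transcript Xist stood at 17019 to 21097 normalised counts in HT fluoxetine females and 14153 to 18264 in HT vehicle females. The Y-linked RNA helicase gene Ddx3y had 10.1 and 9.57 normalised counts in HT fluoxetine females 1 and 5 and 0 in the other 8 libraries, against 1181 to 1721 in the libraries labelled male.

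Naa15 itself did not set libraries labelled HT apart. It had 1786, 1892, 1909, 1904 and 1626 normalised counts in HT fluoxetine females, against 1710.2, 1583, 1669.8, 1599 and 1600.5 in HT vehicle females and 1508 to 1971 in WT vehicle females. The groups overlapped, so the genotype labels could not be checked from its level. Its change with fluoxetine passed the threshold (log2 fold change 0.16 ± 0.06 (SE), adjusted p = 0.0236), but did not without HT fluoxetine female 2, 3 or 4 (adjusted p = 0.0623, 0.0646 and 0.0629) or without HT vehicle female 2 (adjusted p = 0.0539). With the GC and length trend described below removed, the difference was 0.06 (adjusted p = 0.380).

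The 5 libraries labelled HT fluoxetine female stood apart from the other fluoxetine libraries and lay among the lithium libraries. On the first principal component (14.4% of the variance) they lay at -28.1 to -16.0, against -28.8 to -18.9 in HT lithium females, 4.0 to 21.3 in HT fluoxetine males, 11.5 to 21.7 in WT fluoxetine females and 2.53 to 26.3 in HT vehicle females. None of the 5 lay within the range of HT vehicle females. The labels were used as given, and "HT fluoxetine females" below means the libraries so labelled. Likewise, "with fluoxetine" and "fluoxetine effect" name a comparison of labelled groups. Whether the drug, the handling of the libraries or a label error accounts for where these 5 libraries lay was not tested. The comparisons below cannot tell these apart.

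The share of reads that fell on the mitochondrial chromosome, which encodes subunits of the respiratory chain, was raised in the same libraries. It was 7.57, 9.03, 7.25, 7.76 and 6.91% in HT fluoxetine females (7.70 ± 0.809%, SD, n = 5), against 5.31, 5.23, 5.28, 6.74 and 5.6% in HT vehicle females (5.63 ± 0.637%, SD, n = 5). Every fluoxetine library lay above every vehicle library, and HT vehicle female 4 was the highest of its group. The difference of 2.07 points had p = 0.00794 in a two-sided exact permutation test, the smallest that 5 against 5 can give (adjusted p = 0.0106 over 12 comparisons of library measures). The share was 8.41 ± 1.11% in HT lithium females, and its difference from HT fluoxetine females of -0.703 points gave p = 0.286 in the exact permutation test (adjusted p = 0.343). Against HT fluoxetine males (6.05 ± 0.322%) and WT fluoxetine females (5.59 ± 0.491%) the share was higher by 1.66 and 2.11 points, each with p = 0.00794 in the exact permutation test (adjusted p = 0.0106).

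Part of the mitochondrial reads had been counted on nuclear copies. A stretch of chromosome 1 carries copies of 6 mitochondrial genes, and over the bases compared 5 of them matched exactly and the copy of mt-Nd3, Gm28438, differed at 1 of 345. The first 33 bases of this gene and of its copy are shown because they hold that single difference, T3C, counted from the first base of the gene (GENCODE M21 annotation, GRCm38). The base that differs is in capitals.
mt-Nd3, chrM:9459-9491, plus strand: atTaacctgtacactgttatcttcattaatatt
Gm28438, chr1:24613087-24613119, minus strand: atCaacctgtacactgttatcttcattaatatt
Reads from the other 5 pairs cannot be told apart within the matching bases, and the copy of mt-Atp6, Gm10925, averaged 199068 normalised counts over the 59 libraries, against 30211 for mt-Atp6 itself. A further copy, Gm13340 on chromosome 2, matched mt-Co1 at 97.6% of the bases compared and averaged 15.5 normalised counts. With the copies added, as chosen once the data had been seen, the mitochondrial share was 10.3, 11.7, 9.63, 9.61 and 8.5% in HT fluoxetine females (9.96 ± 1.2%, SD, n = 5), against 7.14, 7.0, 7.11, 8.87 and 7.28% in HT vehicle females (7.48 ± 0.782%). The difference was then 2.48 points (exact permutation p = 0.0159), and HT fluoxetine female 5 lay below HT vehicle female 4. HT lithium females had 10.5 ± 1.80% on this measure (exact permutation p = 0.603 against HT fluoxetine females).

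**Figure D1:**
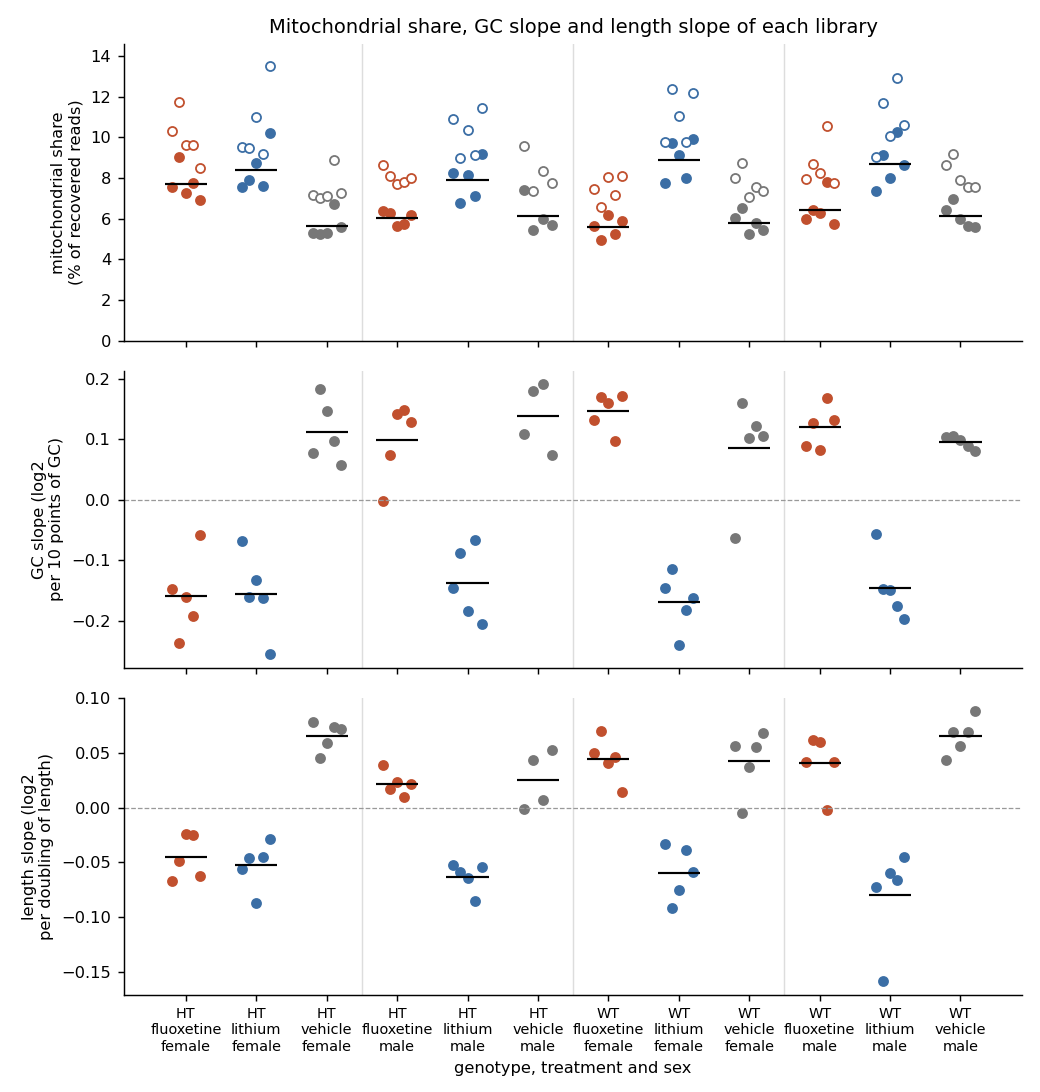
Mitochondrial share of reads in percent (top; filled circles, genes of the mitochondrial chromosome; open circles, with nuclear copies), GC slope (middle) and length slope (bottom) of each of the 59 libraries by genotype, treatment and sex; bars are group means, in the top panel of the filled circles. HT fluoxetine females run from 6.91 to 9.03% in filled circles and lie with the lithium groups in all 3 panels. They lie above HT vehicle females in the filled circles of the top panel and below them in the other panels. The open circles of HT fluoxetine and HT vehicle females overlap.

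Many genes differed between HT fluoxetine and HT vehicle females, most of them by a little. Of 17891 genes tested, 3376 rose and 3480 fell (6856, or 38.3%; 18.9% up and 19.5% down) in limma's moderated test at a Benjamini-Hochberg adjusted p under 0.05. The median change of the called genes was 0.279 on the log2 scale in either direction, and 94 of them changed by 1 or more. The groups did not overlap for 4774 genes (26.7%). When libraries were rescaled to the sum of their nuclear genes, 4420 rose and 2736 fell, with the median of all genes at 0.07 instead of 0.01. Nlgn3, the gene of a postsynaptic adhesion molecule that binds neurexins, fell (log2 fold change -0.33 ± 0.03 (SE), adjusted p = 1.33e-14). Ncan, which encodes a proteoglycan of perineuronal nets, was named after its values were seen and lies at chr8:70093085-70120873, minus strand (GRCm38, as all positions below). It had 7994, 8186, 8359.9, 8249.5 and 8352 normalised counts in HT fluoxetine females, against 12319.6, 12068, 11196, 11725 and 11377 in HT vehicle females. Its groups were far apart (log2 fold change -0.51 ± 0.03 (SE), adjusted p = 2.63e-16).

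The largest increases at or above the median level were in genes of mitochondria and ribosomes and in a few neuronal genes. The ribosomal protein paralogue gene Rpl22l1 (chr3:28805436-28807424, plus strand) had 759, 751, 699, 686 and 674 normalised counts in HT fluoxetine females, against 449, 412, 436, 415 and 423 in HT vehicle females. All 5 fluoxetine libraries lay well above the vehicle libraries (log2 fold change 0.74 ± 0.06 (SE), adjusted p = 5.92e-13). Increases were also found in Rpl39, another ribosomal protein gene (log2 fold change 0.63 ± 0.07 (SE), adjusted p = 9.10e-10), in Tmem256, which encodes a small membrane protein (0.58 ± 0.06), and in Resp18, a gene of neuroendocrine secretory granules (0.58 ± 0.09). Gng13, a G protein gamma subunit gene, had 587, 591, 530.1, 451 and 557 normalised counts in HT fluoxetine females, against 395, 366, 362, 298 and 334 in HT vehicle females, with no overlap (log2 fold change 0.63 ± 0.11 (SE), adjusted p = 3.55e-06). The excitatory neuron transcription factor gene Neurod6 rose by the same measure (log2 fold change 0.57 ± 0.12 (SE), adjusted p = 0.000139).

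The largest decreases were in genes of vessel walls and extracellular matrix. Eln, which encodes elastin, had 631, 666, 759, 545 and 679.7 normalised counts in HT fluoxetine females, against 1105, 1316, 1128, 1668 and 981 in HT vehicle females (log2 fold change -0.90 ± 0.15 (SE), adjusted p = 1.55e-06). Hspg2, the gene of the basement membrane proteoglycan perlecan, had 465, 458, 532, 464 and 477 normalised counts in HT fluoxetine females, against 926, 912, 806, 941 and 741 in HT vehicle females (log2 fold change -0.85 ± 0.10 (SE), adjusted p = 2.94e-09). No library of either gene crossed into the other group, although HT fluoxetine female 3 had the highest Hspg2 of its group. Vwf, the von Willebrand factor gene of endothelium, changed by -0.74 ± 0.09 and the fibrillar collagen gene Col1a1 by -0.78 ± 0.22 (adjusted p = 7.93e-09 and 0.00314). With the GC and length trend described below removed, Col1a1 changed by -0.40 and did not pass (adjusted p = 0.239). Adgrg1, an adhesion receptor gene, changed by -0.73 ± 0.11 and the adherens junction gene Nectin1 by -0.69 ± 0.10, both with non-overlapping groups.

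Respiratory chain genes of the mitochondrial chromosome were higher in HT fluoxetine females, but how much depended on the nuclear copies. Of the 13 protein genes, 8 rose and 0 fell (61.5% called), with a median change of 0.46 on the log2 scale, against 38.3% called and a median of 0.01 over all genes. With each copy added to its gene, 9 rose and 0 fell, with a median of 0.40. Among the 6 genes with no copy, 4 rose and 0 fell, with a median of 0.42. The complex I subunit gene mt-Nd1, which has no copy here, had 202635, 235226, 192609, 197825 and 167556 normalised counts in HT fluoxetine females, against 138540.0, 131668, 138959, 164572 and 139779 in HT vehicle females. The groups did not overlap, and HT vehicle female 4 stood above the rest of its group (log2 fold change 0.48 ± 0.11 (SE), adjusted p = 0.000228). The complex IV catalytic subunit gene mt-Co1 rose by 0.40 ± 0.10 (adjusted p = 0.000987).

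The mitochondrial gene with the largest change lost it when its copy was added. mt-Atp6, an ATP synthase subunit gene at chrM:7927-8607, plus strand, had 33933, 48616, 40119.6, 48044 and 54469 normalised counts in HT fluoxetine females, against 15309, 17039, 15360.2, 16350.3 and 17467 in HT vehicle females (log2 fold change 1.45 ± 0.15 (SE), adjusted p = 4.22e-11). The copy Gm10925 had 245359, 231745, 184669, 166405 and 102382 in HT fluoxetine females, against 173842, 166106, 168743, 225908 and 168254 in HT vehicle females, with groups that overlapped. Their sum was 279293, 280360.0, 224789, 214450.0 and 156852 in HT fluoxetine females, against 189151, 183144, 184103, 242258 and 185721 in HT vehicle females. The sums overlapped, with a log2 change of 0.21 ± 0.15 (SE) and adjusted p = 0.282. mt-Nd3, the gene whose first bases are shown above, kept its change with its copy: the sum was 27922, 31680.5, 25982, 25638 and 21691 in HT fluoxetine females, against 14502, 12623, 13195, 14560.1 and 14064 in HT vehicle females. All fluoxetine sums lay above all vehicle sums, with a log2 change of 0.94 ± 0.12 (SE) and adjusted p = 9.71e-09. The complex I gene mt-Nd4l passed the threshold only as a sum (1.01 ± 0.17, adjusted p = 3.40e-06), against 0.46 ± 0.36 (adjusted p = 0.327) counted alone.

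Nuclear genes of the same machinery also moved up. Of 37 nuclear complex I genes, 24 rose and 7 fell (83.8% called), with a median log2 change of 0.28, and of 39 genes of complexes II to V, 28 rose and 3 fell (79.5% called), with a median of 0.28. Over all genes, 18.9% rose and 19.5% fell, and the shares called in the lists below stand against 38.3%. With the GC and length trend described below removed, 7.17% of all genes rose and 7.24% fell (14.4% called). Counts with the trend removed stand against these shares, here and in the lists below. Without the trend, 11 complex I genes rose and 7 fell (median 0.07), and 11 genes of complexes II to V rose and 6 fell (median 0.08). Ndufb2, a small complex I subunit gene at chr6:39592574-39603382, plus strand, had 1245, 1222, 1185, 1114 and 1189 normalised counts in HT fluoxetine females, against 867, 840.4, 902, 798 and 894 in HT vehicle females. The gap between the groups was wider than the spread within either (log2 fold change 0.47 ± 0.04 (SE), adjusted p = 7.71e-13). The complex IV gene Cox6c changed by 0.43 ± 0.04 (adjusted p = 1.51e-11). These are changes of transcripts relative to all reads in a bulk tissue, in which more cells of a kind and more RNA per cell cannot be told apart.

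Ribosomal protein genes followed the same direction. Of 79 genes of the mitochondrial ribosome, 53 rose and 6 fell (74.7% called, median log2 change 0.21), and of 107 genes named for the cytosolic ribosome, 63 rose and 9 fell (67.3% called, median 0.24). After removal of the trend the counts were 21 and 3 for the mitochondrial ribosome (median 0.08) and 31 and 17 for the cytosolic ribosome (median 0.09). The second list holds processed pseudogenes and retrocopies, which share reads with their parent genes, so its count is uncertain. Mrpl11, a protein gene of the large mitochondrial subunit, had 958, 986, 947, 923 and 981 normalised counts in HT fluoxetine females, against 762, 781, 783, 733 and 759 in HT vehicle females, with no overlap (log2 fold change 0.33 ± 0.04 (SE), adjusted p = 1.58e-10).

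**Figure D2:**
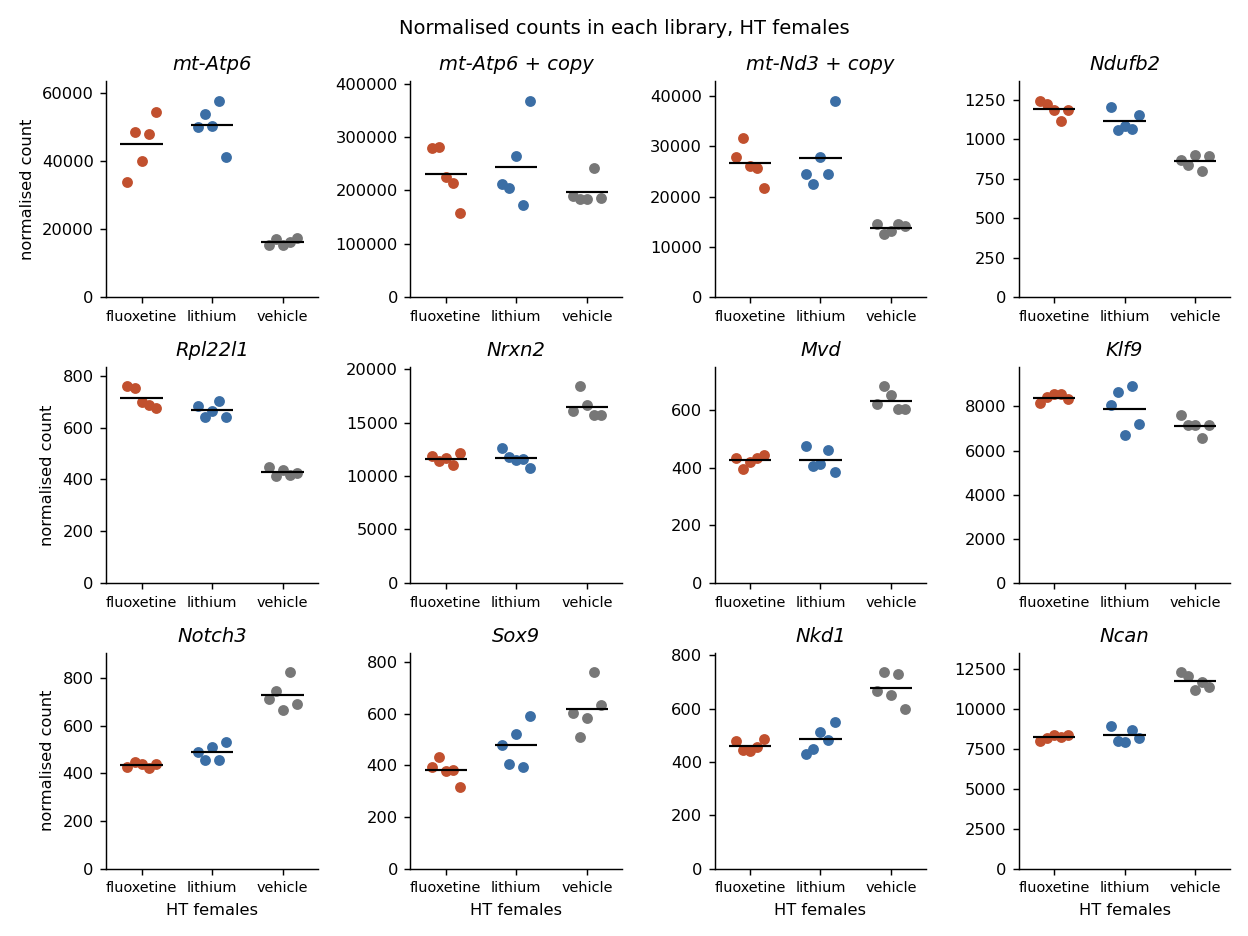
Normalised counts in each library of HT females for 10 genes and for mt-Atp6 and mt-Nd3 summed with their nuclear copies; points are libraries, bars are group means of 5, and each axis starts at 0. Fluoxetine libraries lie apart from vehicle libraries in every panel except the mt-Atp6 sum (156852 to 280360.0 in fluoxetine, 183144 to 242258 in vehicle), and lie near the lithium libraries.

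Genes of the synapse moved the other way. Of 36 presynaptic release genes, 1 rose and 19 fell (55.6% called, median log2 change -0.20), and of 40 postsynaptic scaffold and adhesion genes, 4 rose and 23 fell (67.5% called, median -0.25). Nrxn2, which encodes the presynaptic adhesion molecule neurexin 2 and lies at chr19:6418731-6544169, plus strand, had 11899.9, 11415, 11671, 11016 and 12174 normalised counts in HT fluoxetine females, against 16090.3, 18374, 16604, 15658 and 15713 in HT vehicle females. The groups were separated by more than the spread of either (log2 fold change -0.50 ± 0.04 (SE), adjusted p = 4.28e-13). Syn1, the synapsin gene of the vesicle pool, changed by -0.35 ± 0.04 (adjusted p = 1.45e-09). With the GC and length trend removed, 0 presynaptic genes rose and 2 fell (median -0.04), and 1 postsynaptic gene rose and 7 fell (median 0.00). Neither Nrxn2 (-0.07, adjusted p = 0.235) nor Syn1 (-0.07, adjusted p = 0.257) passed, while Nlgn3 did (-0.21, adjusted p = 7.40e-05).

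Glutamate and GABA receptor genes differed in direction before the GC and length trend was removed. Of 17 ionotropic glutamate receptor genes 2 rose and 8 fell (58.8% called, median log2 change -0.25), and of 7 metabotropic ones 0 rose and 2 fell (28.6% called, median -0.11). Of 12 GABA-A receptor genes 6 rose and 0 fell (50% called, median 0.18). With the trend removed 0 ionotropic genes rose and 2 fell (median -0.03), and 0 of the 12 GABA-A genes passed in limma's test, with 1 at an unadjusted p under 0.05 (median 0.06). Grin1, the obligate NMDA receptor subunit gene, had 14053, 13346, 14101, 13741 and 14862 normalised counts in HT fluoxetine females, against 17775, 19976, 18294, 16884 and 17196 in HT vehicle females (log2 fold change -0.36 ± 0.05 (SE), adjusted p = 1.10e-07). Grm2, a presynaptic metabotropic receptor gene, had 1574, 1553, 1473, 1462 and 1568 in HT fluoxetine females, against 2399, 3235, 2614, 1949 and 2352 in HT vehicle females (log2 fold change -0.70 ± 0.12 (SE), adjusted p = 2.58e-06). Gabra4, an alpha subunit gene of extrasynaptic GABA-A receptors, had 4217, 5177, 3953, 3959.9 and 3686 in HT fluoxetine females, against 3299.6, 3472, 3421, 2765 and 3014 in HT vehicle females (log2 fold change 0.39 ± 0.09 (SE), adjusted p = 0.000208). Groups of these 3 genes did not overlap. After removal of the GC and length trend only Grm2 of them passed (-0.39, adjusted p = 0.0221; Grin1 -0.02, adjusted p = 0.819; Gabra4 0.24, adjusted p = 0.0726).

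Serotonin genes, the pathway fluoxetine acts on, were called in both directions and at no more than the share of all genes. Their log2 changes ran from -0.70 to 0.46. Of 15 receptor, transporter and degrading enzyme genes tested, 2 rose and 2 fell (median log2 change 0.11), which is 26.7%, against 38.3% of all genes called. Htr2a, the main excitatory serotonin receptor gene of cortex, had 2036, 2262, 1889.8, 1810.3 and 1847 normalised counts in HT fluoxetine females, against 1486, 1799.5, 1668, 1471 and 1656 in HT vehicle females. The groups did not overlap, yet the change passed only narrowly (log2 fold change 0.28 ± 0.12 (SE), adjusted p = 0.0479) and did not pass without any 1 of HT fluoxetine females 1, 2 and 3 or HT vehicle females 1, 3, 4 and 5 (adjusted p 0.0563 to 0.146). Maoa, which encodes the enzyme that degrades serotonin, changed by 0.18 ± 0.05 (adjusted p = 0.00148). Htr3a, the ion channel receptor gene of some interneurons, changed by -0.38 ± 0.14 (adjusted p = 0.0231) and did not pass without HT fluoxetine female 3 or 5 or HT vehicle female 2 or 4 (adjusted p 0.0619 to 0.0793). With the GC and length trend removed 0 of the 15 passed in limma's test, and 1 had an unadjusted p under 0.05.

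Sterol genes moved down as a group. Of 25 cholesterol synthesis and uptake genes 3 rose and 13 fell (64% called, median log2 change -0.17). Without the GC and length trend, 0 rose and 9 fell (median -0.14). The synthesis enzyme gene Mvd had 434, 395, 422, 433 and 446 normalised counts in HT fluoxetine females, against 621, 684, 653, 607 and 606 in HT vehicle females, with no overlap (log2 fold change -0.57 ± 0.07 (SE), adjusted p = 2.05e-09). The transcription factor genes Srebf1 and Srebf2, which switch on lipid synthesis, changed by -0.74 ± 0.09 and -0.41 ± 0.04 (adjusted p = 9.18e-09 and 1.09e-11). With the trend removed Srebf1 still passed (-0.41, adjusted p = 0.000288) and Srebf2 did not (-0.07, adjusted p = 0.214).

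The sterol enzyme gene Hmgcs1, named after its values were seen, had 9713, 9567, 9259, 9709 and 9273 normalised counts in HT fluoxetine females, against 16357, 10629, 11729, 10404 and 10889 in HT vehicle females. HT vehicle female 1 was far above its group, and the change (log2 fold change -0.32 ± 0.09 (SE), adjusted p = 0.00403) did not pass without it (-0.20, adjusted p = 0.0553). Its promoter is shown because it was the only one of 17 list members with a promoter sequence at hand to hold the core of the sterol response element, TCACNCCAC, on either strand. The 250 bases before the start come from RefSeq (GRCm38.p6, chr13:119690101-119690350, plus strand), and the match, 129 to 137 bases before the start, is in capitals.
Hmgcs1 promoter: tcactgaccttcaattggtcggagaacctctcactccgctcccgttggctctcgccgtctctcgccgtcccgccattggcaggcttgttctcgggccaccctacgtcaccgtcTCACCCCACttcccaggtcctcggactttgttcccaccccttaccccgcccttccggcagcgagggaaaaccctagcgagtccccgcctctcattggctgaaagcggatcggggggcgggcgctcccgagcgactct
These letters stood in 1 of the 17 list genes (5.88%) and in 331 of all 27025 genes with a promoter sequence (1.22%). Counted by promoter, they stood in 346 of 32851 of the same length (1.05%). The match describes the sequence only.

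Glucocorticoid response genes, which follow stress hormone, were called at about the share of all genes. Of 27 such genes 7 rose and 2 fell (median log2 change 0.14), which is 33.3% called, against 38.3% of all genes, and 25.9% that rose, against 18.9%. Without the GC and length trend, 6 rose and 1 fell (median 0.20). Klf9, a transcription factor gene at chr19:23141226-23168134, plus strand, had 8136, 8408, 8563, 8571 and 8317 normalised counts in HT fluoxetine females, against 7621, 7177, 7142, 6582 and 7139.5 in HT vehicle females. Every fluoxetine library was above every vehicle library (log2 fold change 0.24 ± 0.06 (SE), adjusted p = 0.00101). The kinase gene Map3k6 had 115, 128, 114, 129 and 152 in HT fluoxetine females, against 82.8, 108, 68.8, 104 and 97.6 in HT vehicle females (log2 fold change 0.48 ± 0.17 (SE), adjusted p = 0.0232), and did not pass without HT fluoxetine female 5 or HT vehicle female 1 or 3 (adjusted p = 0.0675, 0.0519 and 0.0960). Hif3a, a hypoxia-inducible factor gene, changed by 0.52 ± 0.20 (adjusted p = 0.0362) with overlapping groups, and did not pass without HT fluoxetine female 2, 3 or 4 or HT vehicle female 1, 2 or 3 (adjusted p 0.0515 to 0.311). Without HT vehicle female 3 its change was 0.25. Bcl6, a repressor gene on the same list, went the other way (log2 fold change -0.36 ± 0.08 (SE), adjusted p = 0.000389).

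Markers of mural cells fell or did not pass, and those of endothelium were mixed. Of 12 markers of mural cells, which are the pericytes and smooth muscle of vessels, 0 rose and 7 fell (58.3% called, median log2 change -0.41). Without the GC and length trend, 0 rose and 5 fell (median -0.31). The markers summed to 7242 to 8055 normalised counts in HT fluoxetine females and 8378 to 10527 in HT vehicle females, without overlap. Notch3, a receptor gene of vascular smooth muscle at chr17:32120820-32166852, minus strand, had 426, 447, 441, 422 and 439 normalised counts in HT fluoxetine females, against 711, 747, 668, 825 and 691 in HT vehicle females. The fluoxetine libraries were close to each other and all below the vehicle libraries (log2 fold change -0.74 ± 0.08 (SE), adjusted p = 9.84e-11). The pericyte growth factor receptor gene Pdgfrb changed by -0.61 ± 0.07, the contractile genes Acta2 and Myl9 by -0.73 ± 0.15 and -0.67 ± 0.10, and all 3 passed with and without the trend (adjusted p = 1.69e-09, 9.58e-05 and 5.14e-07). Of 15 endothelial markers 2 rose and 5 fell (46.7% called, median -0.10), and with the trend removed 0 rose and 3 fell. Among those that fell was the growth factor receptor gene Kdr (log2 fold change -0.71 ± 0.12 (SE), adjusted p = 4.19e-06). Itm2a, a membrane protein gene on the same list, had 1922, 1877, 1768, 1842 and 1759 normalised counts in HT fluoxetine females, against 1454, 1331, 1430.2, 1462 and 1335 in HT vehicle females. It rose without overlap (log2 fold change 0.39 ± 0.07 (SE), adjusted p = 6.13e-06), but did not pass with the trend removed (0.09, adjusted p = 0.325). Whether fewer vessel cells in the dissected pieces or less RNA per cell accompanied these values was not tested.

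Glial markers changed by type. Of 15 astrocyte markers 1 rose and 8 fell (60% called, median log2 change -0.22), or 1 and 5 after the GC and length trend was removed. The list summed to 198423 to 213261 normalised counts in HT fluoxetine females and 217796 to 283321 in HT vehicle females. Sox9, a transcription factor gene of astrocytes at chr11:112782224-112787760, plus strand, had 395, 432, 379, 380.4 and 316 normalised counts in HT fluoxetine females, against 601, 509.7, 582, 761 and 635 in HT vehicle females. Even the highest fluoxetine library lay below the lowest vehicle library (log2 fold change -0.69 ± 0.12 (SE), adjusted p = 8.09e-06). Aldh1l1, a folate enzyme gene, changed by -0.41 ± 0.07. Of 10 oligodendrocyte precursor markers 0 rose and 6 fell (60% called, median -0.37), or 0 and 1 with the trend removed, with the proteoglycan gene Cspg4 at log2 fold change -0.68 ± 0.08 (SE), adjusted p = 4.74e-10. Of 15 markers of mature oligodendrocytes and myelin 0 passed in either direction in limma's test (median -0.15), 0 in edgeR and 0 in DESeq2, and 3 had an unadjusted p under 0.05, while their sums spread widely, at 58550.3 to 178173 in HT fluoxetine females and 69047 to 190870.0 in HT vehicle females. Of 15 microglia markers 4 rose and 4 fell (53.3% called), or 0 and 5 with the trend removed. Their log2 changes ran from -0.48 to 0.38. Among the 4 that fell was the chemokine receptor gene Cx3cr1 (log2 fold change -0.46 ± 0.07 (SE), adjusted p = 1.69e-07).

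Markers of neurons gave mixed values. Of 14 excitatory cortical markers 1 rose and 4 fell (35.7% called, median log2 change -0.18), and of 18 interneuron markers 2 rose and 3 fell (27.8% called, median -0.09), both below the 38.3% of all genes. With the GC and length trend removed, 0 excitatory markers rose and 1 fell (median -0.06), and 0 interneuron markers rose and 2 fell (median -0.10). Pvalb, a calcium-binding protein gene of fast-spiking interneurons, had 710.0, 710.3, 676, 629.9 and 769.7 normalised counts in HT fluoxetine females, against 534, 459, 527, 411 and 446 in HT vehicle females (log2 fold change 0.56 ± 0.14 (SE), adjusted p = 0.000708). Sst, the gene of the peptide somatostatin of another interneuron class, had 3641, 3569, 3595, 3690.4 and 4497 in HT fluoxetine females, against 4603, 5229.6, 5063, 4625 and 4606 in HT vehicle females (log2 fold change -0.35 ± 0.10 (SE), adjusted p = 0.00345). The groups did not overlap for either gene. Of 12 markers each of striatum and of olfactory bulb, which lie next to the dissected area, 0 passed in limma's test, edgeR or DESeq2 in either direction, and 1 striatal and 0 olfactory markers had an unadjusted p under 0.05. Their medians were -0.17 and -0.36. Striatal sums were 7861 to 12566 normalised counts in HT fluoxetine and 8713 to 11057 in HT vehicle females. Olfactory sums were 6995 to 13389 and 6520 to 15541. With such spread, the lack of calls does not show that dissection was equal.

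Wnt feedback genes, which report on signalling through beta-catenin, fell or did not pass. Of 20 genes 0 rose and 7 fell (35% called, against 38.3% of all genes, median log2 change -0.23). Without the GC and length trend, 0 rose and 4 fell (median -0.12). Nkd1, a feedback inhibitor gene at chr8:88521354-88594884, plus strand, had 478, 445, 439.6, 455 and 486 normalised counts in HT fluoxetine females, against 668, 737, 651, 731 and 599 in HT vehicle females, with a clear gap between the groups (log2 fold change -0.55 ± 0.07 (SE), adjusted p = 1.60e-08). The transcription factor gene Lef1 changed by -0.62 ± 0.14 and the membrane inhibitor gene Apcdd1 by -0.58 ± 0.10 (adjusted p = 0.000338 and 6.25e-06).

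Immediate early genes, which follow neuronal activity, were variable. Of 45 such genes 5 rose and 9 fell (median log2 change -0.25), which is 31.1% called, against 38.3% of all genes. With the trend removed 1 rose and 2 fell. Arc and Fos, its best-known members and named after their values were seen, had log2 differences of -0.47 ± 0.35 and -0.39 ± 0.28 (adjusted p = 0.30 and 0.295) and overlapping groups. Fos passed without HT vehicle female 4 (-0.71, adjusted p = 0.0330). The secreted peptide precursor gene Vgf changed by -0.61 ± 0.10 (adjusted p = 4.63e-06). Of 20 clock genes 2 rose and 8 fell (50% called, median -0.10), with the clock repressor gene Nr1d1 at log2 fold change -0.47 ± 0.07 (SE), adjusted p = 1.12e-07. With the trend removed 1 clock gene rose and 2 fell (median 0.04).

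Among 13 genes of NatA and other acetyltransferases 7 rose and 2 fell (69.2% called, median log2 change 0.12). With the GC and length trend removed, 2 rose and 1 fell (median 0.05). Naa20, the called member of smallest p, rose. It had 1285, 1250, 1213, 1192 and 1175 normalised counts in HT fluoxetine females, against 985, 952, 1037, 941 and 985 in HT vehicle females. The largest change on the list was a fall in Naa80, the gene of the enzyme that acetylates actin, with 193, 188, 232, 227 and 255 normalised counts in HT fluoxetine females, against 338, 359.9, 299, 319 and 302 in HT vehicle females. Its groups did not overlap (log2 fold change -0.57 ± 0.09 (SE), adjusted p = 8.36e-07), and it still passed with the GC and length trend removed (-0.42, adjusted p = 0.000250). Of 27 unfolded protein response genes 8 rose and 4 fell (44.4% called, median 0.05), or 4 and 4 with the trend removed (median 0.03). The chaperone gene Hyou1 was among those that fell (log2 fold change -0.38 ± 0.04 (SE), adjusted p = 1.79e-10).

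Direction in HT females followed the base composition and length of the transcript. Genes were split into 5 equal classes by GC content and by length. Of the 3576 genes with the lowest GC content 1519 rose and 24 fell (median log2 change 0.20), and of the 3576 with the highest 105 rose and 1700 fell (median -0.25). Of the 3576 shortest 890 rose and 259 fell (median 0.14), and of the 3576 longest 488 rose and 1012 fell (median -0.05). The slope of a library's log2 values on GC content averaged -0.159 per 10 points of GC in HT fluoxetine females (-0.236 to -0.0581), against 0.113 in HT vehicle females (0.0580 to 0.183), and the ranges did not overlap (exact permutation p = 0.00794, adjusted p = 0.0106). HT lithium females averaged -0.156 (exact permutation p = 0.937 against HT fluoxetine females). The length slope ran from -0.0666 to -0.0237 per doubling of length in HT fluoxetine females and from 0.0456 to 0.0782 in HT vehicle females. In the other 3 fluoxetine comparisons no GC class had a median beyond 0.06 in either direction.

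**Figure D3:**
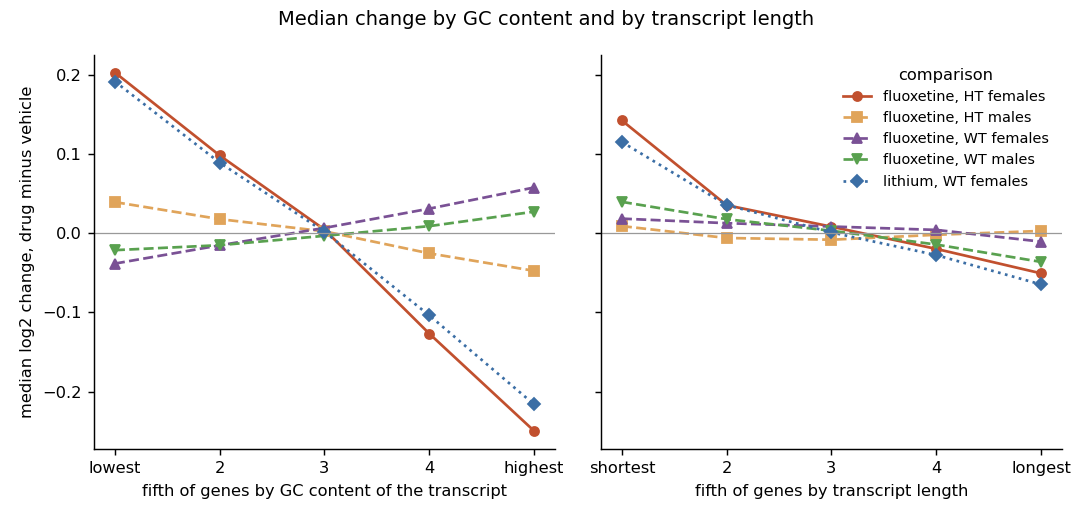
Median log2 change of genes in 5 equal classes of GC content and of transcript length, lowest class on the left, in each comparison shown; every class holds 3576 genes. In HT females given fluoxetine the medians run down from 0.20 to -0.25 with rising GC content and from 0.14 to -0.05 with rising length, and the other fluoxetine comparisons lie within 0.06 of 0 by GC content.

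With a smooth GC and length trend removed from each library, 1282 genes rose and 1294 fell in HT females (2576, or 14.4%; 7.17% and 7.24%). Of these, 1894 were called in the same direction as before, 44 in the opposite one and 638 anew, and 1084 of the genes called before changed sign. Lists that had moved with composition lost most of their median: mitochondrially encoded genes went to -0.07, complex I genes to 0.07, presynaptic genes to -0.04 and postsynaptic genes to 0.00. Mural markers (-0.31), precursor markers (-0.23), astrocyte markers (-0.16), sterol genes (-0.14) and glucocorticoid genes (0.20) kept more of theirs, although 1 of the 10 precursor markers passed, against 6 before. Among single genes Rpl22l1 (0.50, adjusted p = 2.89e-08), Ndufb2 (0.36, adjusted p = 7.54e-07), Gng13 (0.61, adjusted p = 1.76e-06), Nkd1 (-0.39, adjusted p = 6.11e-05) and Ncan (-0.21, adjusted p = 4.32e-05) still passed. Neurod6 (0.32, adjusted p = 0.102), Pvalb (0.34, adjusted p = 0.0726), Aldh1l1 (-0.20, adjusted p = 0.0507), mt-Nd1 (-0.02, adjusted p = 0.914), mt-Co1 (0.04, adjusted p = 0.828) and mt-Nd3 counted alone (0.13, adjusted p = 0.806) did not. With each library's GC and length slopes as covariates, whose ranges did not overlap between the 2 groups, 409 rose and 321 fell (730, or 4.08%). Of these, 267 were called in the same direction as before, 41 in the opposite one and 422 anew, and 2424 of the genes called before changed sign. The median of precursor markers was then 0.36 and that of sterol genes 0.01, with 0 members of either list called in limma's test and 2 and 3 at an unadjusted p under 0.05, while mural markers had a median of -0.71 with 5 that fell. With the mitochondrial share as a covariate 2922 rose and 3055 fell (5977, or 33.4%), and 4865 of these were called in the same direction as before. The share did not overlap between the 2 groups either, so this fit cannot separate it from the treatment label.

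**Figure D4:**
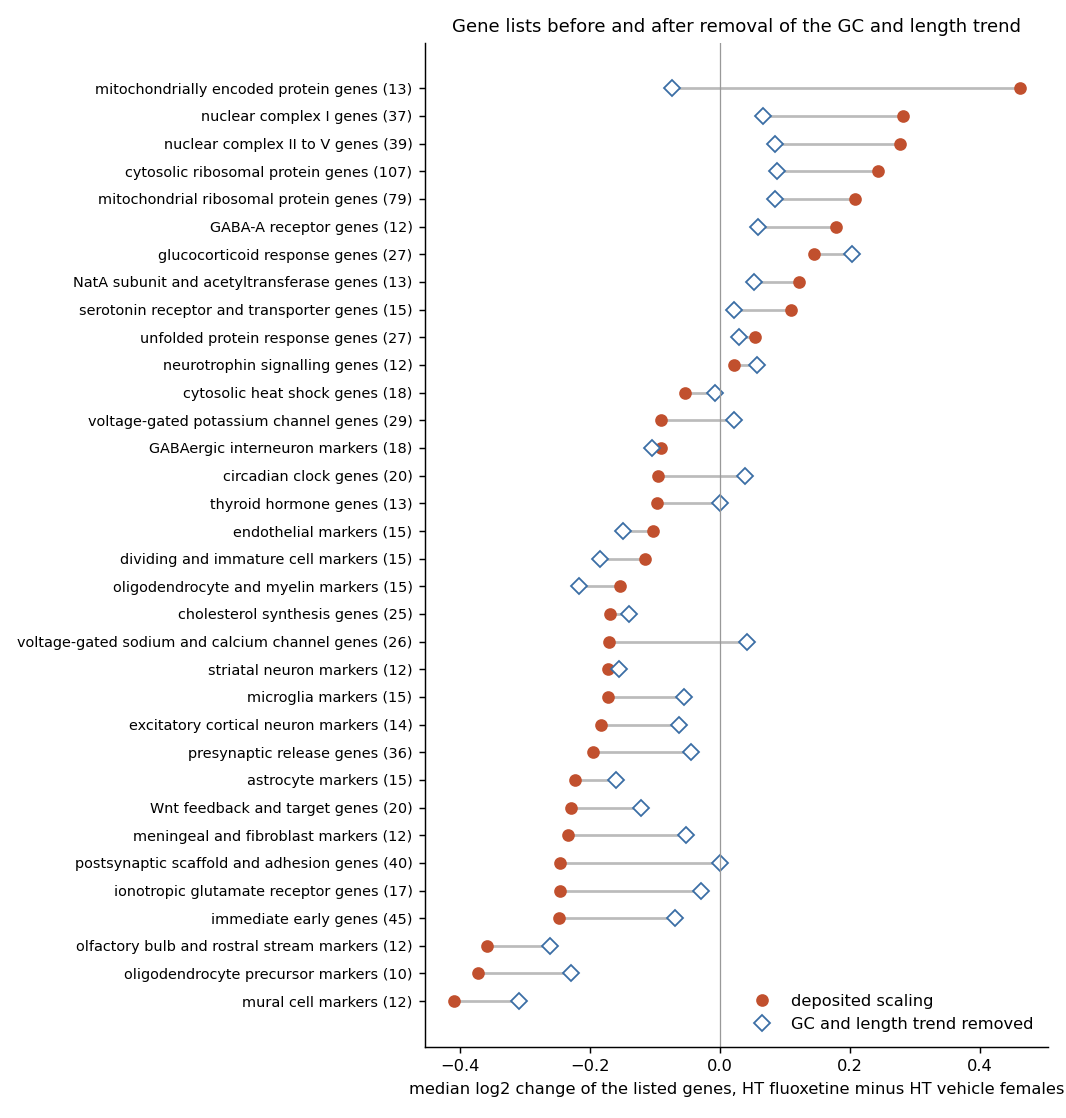
Median log2 change, fluoxetine minus vehicle in HT females, of the members of each gene list with 10 or more members; filled circles, deposited scaling; open diamonds, GC and length trend removed; list sizes in brackets. Mitochondrially encoded genes go to -0.07 from 0.46, while mural cell markers (-0.31) and glucocorticoid genes (0.20) stay away from 0.

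The other fluoxetine groups changed far less. Fluoxetine minus vehicle gave 17 rises and 12 falls in HT males (29, or 0.162%), 20 and 5 in WT females (25, or 0.140%) and 15 and 8 in WT males (23, or 0.129%), with unadjusted p under 0.05 in 1544, 1997 and 1413 genes. The difference between effects was tested directly. The effect in HT females differed from that in HT males for 2716 genes (15.2%), with 1179 higher and 1537 lower in females, and from that in WT females for 5183 genes (29.0%), with 2363 higher and 2820 lower in HT. Rescaled to the nuclear sum these splits were 1901 higher and 1179 lower against males, and 3998 and 2012 against WT females, and quantile normalisation gave 1495 and 1295 against males.

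Rpl22l1 shows the contrast between groups. Its log2 change was 0.74 ± 0.06 in HT females, 0.11 ± 0.07 in HT males, -0.00 ± 0.06 in WT females and -0.01 ± 0.06 in WT males. Its level was 674 to 759 normalised counts in HT fluoxetine females, against 397 to 527 in HT fluoxetine males and 415 to 520.1 in WT fluoxetine females. The effect in HT females exceeded that in HT males by 0.63 ± 0.09 (SE; adjusted p = 8.36e-06) and that in WT females by 0.74 ± 0.09 (adjusted p = 2.23e-08). With both slopes as covariates these gaps of Rpl22l1 were 0.10 and 0.097 and did not pass (adjusted p = 0.784 and 0.767). Nectin1 and Adgrg1 were lower by -0.76 ± 0.15 and -0.77 ± 0.16 than in HT males (adjusted p = 0.000247 and 0.000879). Against WT females the gap was -1.01 ± 0.21 for Eln, -0.95 ± 0.15 for Hspg2 and 0.63 ± 0.10 for Hnmt, which encodes the enzyme that inactivates histamine (adjusted p = 0.000151, 1.44e-06 and 1.11e-06). Without the GC and length trend the gaps of Nectin1 (-0.43, adjusted p = 0.0968) and Hnmt (0.19, adjusted p = 0.335) did not pass. For mt-Atp6 the gaps were 1.52 ± 0.22 and 1.68 ± 0.21 (adjusted p = 4.00e-06 and 2.72e-08), but 0.32 and 0.26 with its copy added (adjusted p = 0.341 and 0.390).

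A few genes were called with fluoxetine in every group. Hif3a, Map3k6 and the sterol sensor gene Insig1 were called in the same direction in all 4 fluoxetine comparisons, which share no library. Map3k6 had 0.48 ± 0.17 in HT females, 0.93 ± 0.18 in HT males, 0.80 ± 0.17 in WT females and 1.04 ± 0.17 in WT males. Hif3a had 0.52 ± 0.20, 1.13 ± 0.22, 0.90 ± 0.20 and 1.14 ± 0.20 in the same groups, but in HT females it did not pass in edgeR, in DESeq2 or fitted on the groups compared alone (adjusted p = 0.165, 0.133 and 0.209). Insig1 had -0.17 ± 0.06, -0.30 ± 0.06, -0.28 ± 0.06 and -0.37 ± 0.06, and in HT females did not pass without HT vehicle female 1 or 3 (adjusted p = 0.0782 and 0.0959), under quantile normalisation (0.0724) or rescaled to the nuclear sum (0.121). The interactions of these 3 genes missed the threshold (Map3k6 adjusted p = 0.231 against HT males and 0.352 against WT females), which does not show that the effects were equal. Fkbp5, the co-chaperone gene of the glucocorticoid receptor, named after its values were seen, had 0.31 ± 0.12 in HT females (adjusted p = 0.0402) and 0.69 ± 0.13 in HT males, and in HT females did not pass without HT fluoxetine female 1, 3 or 5 or HT vehicle female 1 or 3 (adjusted p 0.0554 to 0.155). Of 66 genes called in at least 1 of the other fluoxetine comparisons, 36 were called in HT females, against 38.3% of all genes. Of 53 with 1 sign in all 3 others, 45 had that sign in HT females and 24 were called that way.

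By list, glucocorticoid genes had medians of 0.14 in HT females, 0.16 in HT males, 0.17 in WT females and 0.29 in WT males. Mural markers had medians of -0.41 in HT females and -0.30 in HT males, against 0.09 in WT females and -0.05 in WT males. Presynaptic genes had -0.20, -0.02, 0.08 and -0.04 in these 4 groups, and complex I genes 0.28, 0.05, 0.04 and 0.03.

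The lithium libraries gave values close to those of HT fluoxetine females. Set directly against HT lithium females, HT fluoxetine females had 9 genes higher and 1 lower (10, or 0.0559%) in limma's test, with unadjusted p under 0.05 in 1831 genes, and edgeR called 11 and DESeq2 46. Leaving out 1 library moved the count between 0 (without HT lithium female 3 or 5) and 26 (without HT lithium female 4), and without HT fluoxetine females 1 to 5 it was 3, 1, 5, 2 and 10. Banp, a nuclear matrix protein gene, had 935, 840.3, 903, 823 and 1028 normalised counts in HT fluoxetine females, against 748, 588, 597, 535 and 568 in HT lithium females (log2 fold change 0.58 ± 0.11 (SE), adjusted p = 0.0218), and did not pass without HT lithium female 3 or 5 (adjusted p = 0.0926 and 0.0630). The clock gene Per2 had 1626, 1608, 1396, 1375 and 1466 in HT fluoxetine females, against 1078, 897, 882, 1132 and 1132 in HT lithium females (log2 fold change 0.55 ± 0.12 (SE), adjusted p = 0.0410), and did not pass without any 1 of the 10 libraries other than HT lithium female 4 (adjusted p 0.0633 to 0.238). The kinase gene Hunk had 408, 358, 401, 406 and 452 in HT fluoxetine females, against 516, 549.6, 579, 518 and 587 in HT lithium females (log2 fold change -0.44 ± 0.09 (SE), adjusted p = 0.0347), and did not pass without any 1 of HT fluoxetine females 1 to 4 or HT lithium females 1, 2, 3 and 5 (adjusted p 0.0559 to 0.208).

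Lithium against vehicle called 3363 higher and 3400 lower genes in WT females (6763, or 37.8%) and 3335 and 3617 in HT males (6952, or 38.9%), comparisons that share no library with fluoxetine in HT females. Of the 6856 genes called in HT fluoxetine females, 4986 were called in the same direction in WT lithium females, which is 72.7% of the first list and 73.7% of the second. With lithium in HT males 4956 were shared in the same direction, 72.3% of the first list and 71.3% of the second, and with lithium in WT males (7782 called, or 43.5%) 5180 were shared, 75.6% of the first list and 66.6% of the second. These overlaps were counted with the GC and length trend left in. From lowest to highest GC class, medians ran from 0.19 to -0.22 with lithium in WT females. With fluoxetine in HT females they ran from 0.20 to -0.25. How much of the overlap remains without the trend was not tested. Of the 29, 25 and 23 genes called with fluoxetine in HT males, WT females and WT males, 20, 8 and 9 were called in the same direction in HT fluoxetine females and 0, 6 and 1 in the opposite one. Lithium in HT females was set against the same 5 vehicle libraries and called 3289 higher and 3451 lower (6740, or 37.7%), so the 2 sets of changes are given side by side only. In HT females the log2 change with fluoxetine and with lithium was 0.74 and 0.64 for Rpl22l1, -0.50 and -0.50 for Nrxn2, -0.57 and -0.57 for Mvd, and -0.74 and -0.57 for Notch3. For Kdr it was -0.71 and -0.20, for Hunk -0.51 and -0.07, and for Per2 -0.10 and -0.65.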

How the data were processed

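Prefrontal cortex RNA of 59 mice was sequenced from stranded poly(A) libraries, per the labels' protocols. The authors deposited 1 table of 18088 Ensembl genes as a normalised signal, and GRCm38, DESeq2 1.19.11, R 3.6.0 and Salmon 0.11.2 stand in the submitters' processing notes, with no step given. Every value up to 1000 reads was a whole multiple of 1 step per library (100% within 0.01 read). Larger values were rounded to whole reads without this check. Size factors (0.827 to 1.129) and whole reads (24.99 to 32.87 M) were so recovered from the deposited values. GENCODE M21 gave symbols, positions, GC content and length for 18077 genes. All columns were used.

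Genes with a value of at least 10 in 4 libraries (17891) were tested on log2(value + 1) with limma-trend (limma 3.58.1, R 4.3.3), 12 group means and 59 libraries, two-sided, with Benjamini-Hochberg adjustment over all genes in each contrast at 0.05. A fold change on this scale understates that of low genes. Interactions were differences of differences. The GC and length trend was removed from each library by a spline with 5 degrees of freedom (17880 genes with GC values). The scripts were tested on simulated data. Library measures were compared by exact permutation (scipy 1.17.1). Alternatives, given in the closing section, were other scalings, filters, added constants, covariates, blocks, the count tests of DESeq2 1.42.0 and edgeR 4.0.16 on recovered reads, and each library left out. Summing nuclear copies of mitochondrial genes was added after the data were seen.

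Named genes are the 10 called genes that rose most and the 10 that fell most, at the median level or higher and with all 5 fluoxetine libraries beyond the vehicle mean. Added were, for each of 38 lists, the 3 called members of smallest p, mitochondrial protein genes, Naa15, sex-linked genes, the largest 5 each way of the interactions and the lithium contrast, and genes called in all 4 fluoxetine comparisons; lower ranks were left out for length, and a few genes that this rule names are not reported here. The libraries compared, the lists and the rules were chosen with earlier results of these data known.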

Additional observations from a re-analysis of the deposited data

Results flagged for a closer look

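Some libraries lay far from the other 4 of their group by Dixon's ratio, a test that chance alone trips in about 1 of 20 groups. Among HT fluoxetine females, library 5 was the highest for Apcdd1 (1500.1 normalised counts), Syn1 (18024) and Sst (4497), library 3 for Hspg2 (532) and Hif3a (423), and library 2 for Insig1 (1713). Among HT vehicle females, library 4 was the highest for mt-Nd1 (164572), mt-Co1 (753851), Gm10925 (225908), Cx3cr1 (1973) and the mitochondrial share (6.74%). Library 1 of that group was the highest for Hmgcs1 (16357) and library 2 the lowest for Nectin1 (1644). No explanation was tested.

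The fluoxetine effect in HT females differed from that in another group by the test of the difference itself. Against HT males 2716 genes differed, among them mt-Atp6 (1.52 on the log2 scale, 0.32 and not past the threshold with its copy added), Rpl22l1 (0.63), Rpl39 (0.61), Adgrg1 (-0.77) and Nectin1 (-0.76). Against WT females 5183 genes differed, among them mt-Atp6 (1.68, and 0.26 with its copy, again not past the threshold), Rpl22l1 (0.74), Rpl39 (0.63), Hnmt (0.63), Eln (-1.01), Hspg2 (-0.95), Acta2 (-0.89), Col1a1 (-0.89) and Vwf (-0.88). Col1a1 did not pass without WT vehicle female 3 (-0.77, adjusted p = 0.0581). With the GC and length trend removed, Nectin1 (-0.43, adjusted p = 0.0968) and Rpl39 (0.27, adjusted p = 0.0876) did not pass against HT males, and Rpl39 (0.21, adjusted p = 0.108), Hnmt (0.19, adjusted p = 0.335) and Col1a1 (-0.47, adjusted p = 0.441) did not against WT females.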

How the results depend on the processing

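The number of genes called in HT females stayed within 1.5 times 6856 under every other scaling, filter, added constant and tool run, and at 5936 to 6879 with 1 library left out. It did not with the GC and length trend removed (2576) or with both slopes as covariates (730). Against HT males the same settings gave 216 and 26 genes, the replicate block fitted on those groups alone 1744, and 1 library left out 1952 to 3073. Against WT females they gave 1046 and 407, and 1 library left out 4409 to 5422. Against HT lithium females the counts were 6 without limma's intensity trend, 4 rescaled to the nuclear sum, 0 fitted on those groups alone with or without the replicate block, 18 with the mitochondrial share as covariate, 73 with both slopes, 41 with the trend removed, 46 in DESeq2 and 0 to 26 with 1 library left out. The difference in mitochondrial share was 1.74 to 2.35 points with 1 library left out, 1.34 without its most abundant gene, 1.80 on protein genes alone and 2.48 with the nuclear copies. Signs turned with both slopes as covariates for mt-Nd3 (-1.40), mt-Nd1 (-0.40), mt-Co1 (-0.21), Gng13 (-0.019), Gabra4 (-0.13), Htr2a (-0.18), Maoa (-0.038), Itm2a (-0.030), Naa15 (-0.11), Bcl6 (0.24), Grin1 (0.084) and Sst (0.21), and with the trend removed for mt-Nd1 (-0.020) and Maoa (-0.014). With both slopes as covariates, a further 47 results for named genes were weaker, 1 was stronger and 24 stayed the same. Among the weaker were Rpl22l1 (0.16, adjusted p = 0.452) and Srebf1 (-0.14, adjusted p = 0.745). The cause was not tested. The deviations of same-numbered libraries correlated at 0.258 for number 2, the only one that correlated best with itself, and at -0.00891 to 0.0253 for the other 4 numbers. Not every number passed 0.1, so the libraries were not taken as paired; the replicate block gave 6891 genes in HT females, 6161 on those groups alone. Depth limits only the counting error, and low genes carry the most of it.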
